A study of Homo sapiens with 60 samples.

Results

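The subject is a module of 48 genes that copy DNA and supply its building blocks, read across every extract and dose in HepG2 cells. The members were picked by gene symbol for their function, with earlier results of these data known. All 48 were found among the 60675 genes of the count table and passed the filter on low counts, which 16286 genes passed. They comprise 11 genes of origin licensing, 6 of helicase activation, 4 of primase and polymerase alpha, 5 of the replicative polymerases, 6 of the sliding clamp and its loader, 5 of single-strand binding and lagging-strand repair, 3 of fork protection, 5 of nucleotide supply and 3 of chromatin inheritance.

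HepG2 is an established human liver cancer line. Messenger RNA was sequenced after 24 h with 1 of 8 extracts at 20 (Low), 100 (Medium) or 500 (High) µg/mL, or with DMSO as vehicle, in 60 libraries that form 25 groups. Water was used to extract the formulas Sibjeondaebo-tang (SDT) and Palmul-tang (PMT), each made of several herbs. Poria Cocos (Poria), Atractylodis Rhizoma (Atractylodis), Glycyrrhizae Radix (Glycyrrhiza), Panax Ginseng (Ginseng), Angelicae Gigantis Radix (Angelica) and Paeoniae Radix (Paeonia) are single herbs extracted with 70% ethanol. There were 3 libraries per dose for Glycyrrhiza, Poria, Ginseng, Atractylodis and SDT, 2 for PMT, 1 for Paeonia and Angelica, and 3 for vehicle. The sample labels put vehicle at 0.1% DMSO and the series text at 2%, and the DMSO content of the treated cultures is not given in the sources used here. Doses scaled down by toxicity are foreseen in the series text, yet each treated label carries 1 of the 3 doses above. No label says that replicates are separate cultures, so p-values measure the spread between these libraries, which may be technical. A set code in the sample descriptions differs between vehicle and every extract, so treatment and set code cannot be told apart against vehicle; High and Low of 1 extract share a code.

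DNA replication starts at origins, where the origin recognition complex, CDC6 and CDT1 load the MCM helicase in G1. CDC45 and the GINS complex then activate the helicase, polymerase alpha with primase lays down primers, and polymerases delta and epsilon extend them on the PCNA clamp. Ribonucleotide reductase, thymidylate synthase, thymidine kinase and dUTPase keep the deoxynucleotide pools filled. Many of these genes are transcribed at the border of G1 and S phase, when E2F factors are released from RB family proteins, and their transcripts mark dividing cells, hepatoma cells included. In bulk libraries a smaller share of cells in S phase and less RNA per cell cannot be told apart.

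The promoters were searched because the members moved together in the comparisons of Glycyrrhiza. RefSeq windows on GRCh38.p14 ran from 250 bases before to 50 bases after a listed start of a gene. They were matched for 42 of the 48 members, and MCM4, MCM5, GINS4, POLD3, RPA2 and RPA3 had no entry. A gene could have several windows, 58 in all for the 42 members, and a match in any of them counted. An E2F match was any of TTTCCCGC, TTTGGCGC, TTTCGCGC and TTTGCCGC on either strand, and 22 of the 42 members (52.4%) held at least 1, against 4.0% of 27305 genes with a window. CCAAT, the NF-Y letters, stood in 27 members (64.3%) and 39.7% of all genes. The GC box letters GGGCGG, which can share bases with an E2F match, stood in 33 members (78.6%) and 48.3% of all genes. The letters TTTGAA of the cell cycle homology region stood in 2 members (4.8%) and 18.2% of all genes. The 27305 genes include genes that did not pass the filter on low counts, and shares among the genes tested were not computed. These are letter matches and not measured binding sites.

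The 6 stretches printed here are the 250 bases before a listed start, 5′ to 3′ on the gene's strand, with E2F matches in capitals. Where a gene had several windows, the one with the most E2F matches was taken, or the first listed on ties. A printed start is thus not always the first of its gene, and the UHRF1 stretch lies inside the gene's span of chr19:4903080-4962154. UHRF1 is shown as the member with the largest fall, PCNA as the clamp, MCM6 and MCM7 as helicase subunits with several matches, and TK1 and RFC1 as members without a match that fell by much and by little. UHRF1 lies at chr19:4909251-4909500 on the plus strand, and the others lie on the minus strand: MCM6 at chr2:135876444-135876693, PCNA at chr20:5126623-5126872, MCM7 at chr7:100101398-100101647, TK1 at chr17:78187205-78187454 and RFC1 at chr4:39366363-39366612.
UHRF1: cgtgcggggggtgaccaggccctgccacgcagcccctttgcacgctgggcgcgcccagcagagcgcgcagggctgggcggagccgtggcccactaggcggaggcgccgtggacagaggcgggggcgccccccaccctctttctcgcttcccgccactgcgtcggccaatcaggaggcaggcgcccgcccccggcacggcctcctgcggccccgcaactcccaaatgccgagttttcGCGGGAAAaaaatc
MCM6: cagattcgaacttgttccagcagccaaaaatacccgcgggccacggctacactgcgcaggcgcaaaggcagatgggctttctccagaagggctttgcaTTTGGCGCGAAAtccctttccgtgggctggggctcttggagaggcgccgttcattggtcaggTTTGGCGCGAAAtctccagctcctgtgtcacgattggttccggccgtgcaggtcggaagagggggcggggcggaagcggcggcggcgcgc
PCNA: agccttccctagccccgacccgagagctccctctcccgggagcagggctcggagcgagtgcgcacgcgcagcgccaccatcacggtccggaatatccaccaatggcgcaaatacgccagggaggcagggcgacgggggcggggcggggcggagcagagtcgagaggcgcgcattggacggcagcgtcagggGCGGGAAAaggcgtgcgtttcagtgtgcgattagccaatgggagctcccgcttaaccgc
MCM7: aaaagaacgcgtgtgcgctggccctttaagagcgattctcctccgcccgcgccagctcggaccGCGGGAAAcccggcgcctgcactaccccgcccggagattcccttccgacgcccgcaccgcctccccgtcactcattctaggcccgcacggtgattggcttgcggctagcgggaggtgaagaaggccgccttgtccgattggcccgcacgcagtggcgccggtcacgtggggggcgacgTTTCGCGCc
TK1: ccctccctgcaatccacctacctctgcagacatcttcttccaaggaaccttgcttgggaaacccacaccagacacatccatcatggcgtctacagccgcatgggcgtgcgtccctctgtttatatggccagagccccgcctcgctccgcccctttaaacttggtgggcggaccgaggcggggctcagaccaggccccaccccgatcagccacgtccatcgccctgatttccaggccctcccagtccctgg
RFC1: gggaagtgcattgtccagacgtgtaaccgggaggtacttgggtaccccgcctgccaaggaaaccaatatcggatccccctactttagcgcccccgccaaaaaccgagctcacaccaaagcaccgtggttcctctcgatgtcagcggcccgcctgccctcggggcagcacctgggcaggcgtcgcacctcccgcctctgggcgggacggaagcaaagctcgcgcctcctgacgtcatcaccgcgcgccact
In MCM6 the 4 matches form 2 overlapping pairs on opposite strands, so each capital run covers a pair. As a description, the median log2 change of Glycyrrhiza High against Low was -1.23 over the 22 members with an E2F match and -1.05 over the 20 without. Splits by the other letters gave similar gaps for the GC box (-1.21 with, -1.004 without) and CCAAT (-1.25 with, -1.09 without). For TTTGAA, held by 2 members, the medians were -1.18 and -1.11. The part of any of these letters in the fall was not tested.

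Total counts ran from 19057227 to 33233238 per library. All 10 hepatocyte lineage markers had a median above 1 CPM (counts scaled to library size), against 1 of 5 fibroblast, 1 of 4 endothelial, 2 of 4 leukocyte and 3 of 4 biliary markers; the last kind is partly expressed by hepatoma lines too. The summed fibroblast and endothelial markers reached at most 17.8 and 3.23 CPM in any library. Summed CPM ran from 44937 to 70863 for the hepatocyte markers, from 968 to 2177 for the leukocyte markers and from 261 to 424 for the biliary markers. Most of the leukocyte sum was LYZ, with a median of 1196 CPM, followed by CD68 with 67.2 CPM. The other leukocyte markers were PTPRC, at 0 in all libraries, and CD3E, at most 0.085 CPM in any library. Transcripts of the mitochondrial genome took 18.4, 18 and 17.8% of the counts in Glycyrrhiza High and 22.3, 20.1 and 19.7% in Poria High, against 15.1, 17 and 16.8% in Glycyrrhiza Low, 17.5, 15.8 and 17.1% in Poria Low and 13.6, 13.3 and 15.2% in vehicle. The part of this share in the results was not tested.

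Summed over the 48 members, Glycyrrhiza High stood apart from every other group. The sum was 1442, 1365 and 1423 CPM in the 3 Glycyrrhiza High libraries, against 3263, 3209.9 and 3194 CPM in Glycyrrhiza Low and 3657, 3672 and 3549.9 CPM in vehicle. Glycyrrhiza Medium held 3292, 3273 and 3285 CPM, near the Low libraries and far above High. Poria High came next among the replicated groups with 2963, 2907 and 2818 CPM, against 3332, 3213 and 3294 CPM in Poria Low, and these libraries did not overlap. The single Paeonia High library held 2524 CPM. A sum weighs members by their level, so the changes of single members are given as well.

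**Figure D1:**
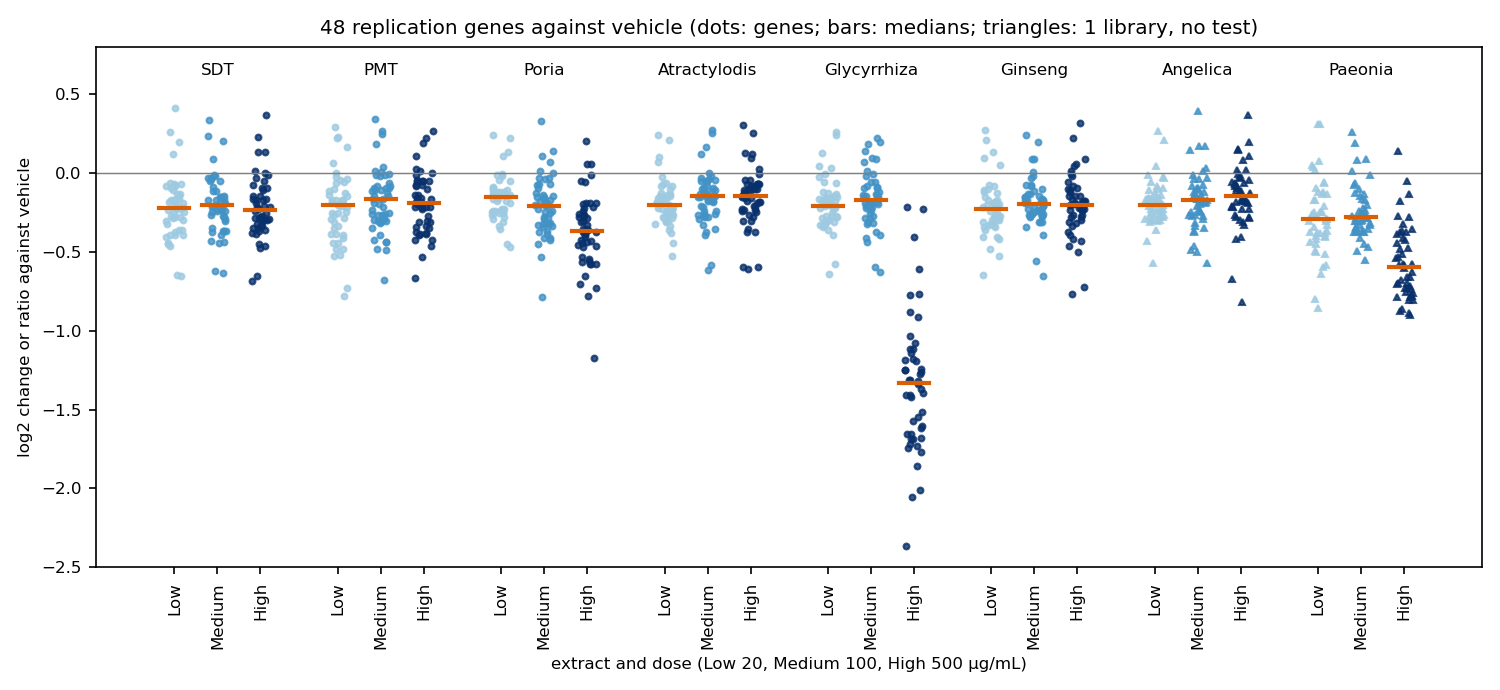
Log2 change of each of the 48 members against vehicle (y axis) in the 24 treated groups (x axis), with a bar at the median; circles are replicated groups and triangles the single libraries of Angelica and Paeonia. The medians lie between -0.15 and -0.37 in 17 of the 18 replicated groups and at -1.33 in Glycyrrhiza High.

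Each extract was first set against vehicle, at each dose. Most members stood lower in nearly every extract and dose, by small amounts, and outside Glycyrrhiza and Poria the number called differed little between doses or was largest at Low. A call is an adjusted p under 0.05 by edgeR's quasi-likelihood test with Benjamini-Hochberg adjustment over all 16286 genes, and adjusted p-values printed without a tool's name are of that kind. Numbers of members or genes lower or higher, here and below, are numbers of calls. The 18 comparisons of the replicated extracts use the same 3 vehicle libraries, so their counts are not independent of each other.

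Glycyrrhiza had 34 members lower and 3 higher than vehicle at Low, 27 and 4 at Medium, and 48 and 0 at High. The median log2 changes were -0.21, -0.17 and -1.33, and the medians of all genes tested lay within 0.02 of 0 in every comparison with vehicle. Of all genes, 15.3%, 17.8% and 30.6% were called lower and 14.6%, 17% and 30.7% higher. Poria had 24 members lower and 2 higher at Low, 31 and 2 at Medium, and 42 and 1 at High, with medians of -0.15, -0.21 and -0.37. The shares of all genes were 10.1%, 19.7% and 25.5% lower and 9.11%, 19% and 25.8% higher. The Low count of 26 calls was 16 without vehicle replicate 2, 14 without Poria Low replicate 2 and 10 with only the 2 groups fitted.

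Ginseng had 39 members lower and 2 higher at Low, 32 and 2 at Medium, and 34 and 2 at High, with medians of -0.23, -0.20 and -0.20. Its shares of all genes were 16.9%, 15.1% and 18.5% lower and 16.6%, 14.6% and 17.8% higher. Atractylodis had 34 lower and 2 higher at Low, 22 and 2 at Medium, and 22 and 2 at High, with medians of -0.20, -0.15 and -0.15. All genes there came to 13.5%, 14.1% and 17.1% lower and 13.3%, 14.1% and 16.8% higher. In both herbs the count was largest at the lowest dose.

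The water extracts gave counts of the same order. SDT had 32 members lower and 4 higher at Low, 31 and 3 at Medium, and 33 and 3 at High, with medians of -0.22, -0.20 and -0.23. Of all genes, 18.1%, 18.4% and 17.3% were lower and 17.7%, 17.6% and 17% higher. PMT had 32 lower and 4 higher at Low, 25 and 4 at Medium, and 26 and 2 at High, with medians of -0.21, -0.16 and -0.19. Its shares of all genes were 15.6%, 15% and 14.5% lower and 15.4%, 14.7% and 14.7% higher. With 2 libraries per dose the PMT counts of calls leant on single libraries: 21 without PMT Low replicate 3, 12 without PMT Medium replicate 2 and 15 without PMT High replicate 2, in place of 36, 29 and 28.

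The vehicle libraries themselves lay close together over the members. Each vehicle library set against the other 2 had a median log2 difference over the 48 members of 0.01, 0.04 and -0.03 in replicates 1, 2 and 3. A shift of the whole vehicle set would not show in this comparison.

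DUT, the dUTPase that keeps uracil out of DNA, RPA3, the smallest subunit of the single-strand binding complex, and GINS4, a subunit of the GINS helicase activator, had the largest mean falls among members called lower at Low. DUT held 40.00, 45.2 and 42.1 CPM in vehicle, 27.7, 29.2 and 28.5 CPM in Glycyrrhiza Low, 27.6, 27 and 27.9 CPM in Glycyrrhiza Medium and 13.1, 11.2 and 14 CPM in Glycyrrhiza High. Its log2 change at Low ran from -0.45 in Poria to -0.78 in PMT (smallest change -0.45 ± 0.08, SE, adjusted p = 2.09e-04). DUT has near-identical copies elsewhere in the genome that could take some of its reads. RPA3 held 22.9, 21.7 and 19.2 CPM in vehicle, 16.1, 13.6 and 16.4 CPM in Poria Low, 14, 11.5 and 11.4 CPM in Poria Medium and 9.76, 8.70 and 9.81 CPM in Poria High. These 3 doses gave log2 changes of -0.47 ± 0.08, -0.78 ± 0.08 and -1.17 ± 0.08, all 3 called, with the largest at 500 µg/mL; the step between Low and Medium was not tested. GINS4 changed by -0.38 in Atractylodis Low, -0.48 in Ginseng Low, -0.36 in Glycyrrhiza Low, -0.48 in PMT Low, -0.36 in Poria Low and -0.45 in SDT Low. No call of DUT, RPA3 or GINS4 against vehicle was lost when any 1 library was left out. Other members called lower leant more on single vehicle libraries. Without vehicle replicate 2, UHRF1 lost 12 of its 16 calls, MCM5 9 of 17 and MCM2 7 of 18. PCNA lost 2 of 18 without vehicle replicate 1.

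CLSPN and RFC1 stood the other way. CLSPN encodes claspin, which couples fork stalling to the checkpoint kinase CHEK1, and held 30.5, 32.3 and 31.7 CPM in Glycyrrhiza Low and 34.2, 31.7 and 40.6 CPM in SDT Low, against 24, 27 and 28.9 CPM in vehicle. Its log2 change at Low ran from 0.21 in Ginseng to 0.42 in SDT. CLSPN was called in all 18 comparisons, higher in 17 and lower in Glycyrrhiza High (-1.03 ± 0.07, adjusted p = 1.54e-16). Without vehicle replicate 1, 9 of the 18 calls were lost, and 6 were lost on total counts without TMM (trimmed mean of M-values) scaling. RFC1, the large subunit of the clamp loader, held 134, 134 and 137 CPM in Glycyrrhiza Low, against 111, 109 and 118 CPM in vehicle, and changed by 0.26 ± 0.04 (adjusted p = 1.51e-05). RFC1 was called in 16 of the 18 comparisons, no call was lost on leaving out any 1 library, and 3 were lost on total counts. It was lower in Glycyrrhiza High (-0.23 ± 0.04, adjusted p = 2.19e-05) and not called in Poria Medium (0.07) or Poria High (-0.05). POLA1, the catalytic subunit of polymerase alpha, was called higher in 6 comparisons by at most 0.20 in Glycyrrhiza Medium, and 6 of its 8 calls were lost on total counts. PRIM2, the large primase subunit, named after its values were seen, was called higher in SDT Low (0.20 ± 0.07, adjusted p = 0.031), SDT Medium (0.21 ± 0.07, adjusted p = 0.0241), PMT Low (0.23 ± 0.08, adjusted p = 0.0366) and PMT Medium (0.27 ± 0.08, adjusted p = 0.0121). RRM2 was called higher in Poria Medium (0.14) and Glycyrrhiza Medium (0.09), and of its 5 calls against vehicle 2 were lost without vehicle replicate 1, 3 without replicate 2 and 1 without replicate 3. The Poria Medium value was -4e-04 on total counts.

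**Figure D2:**
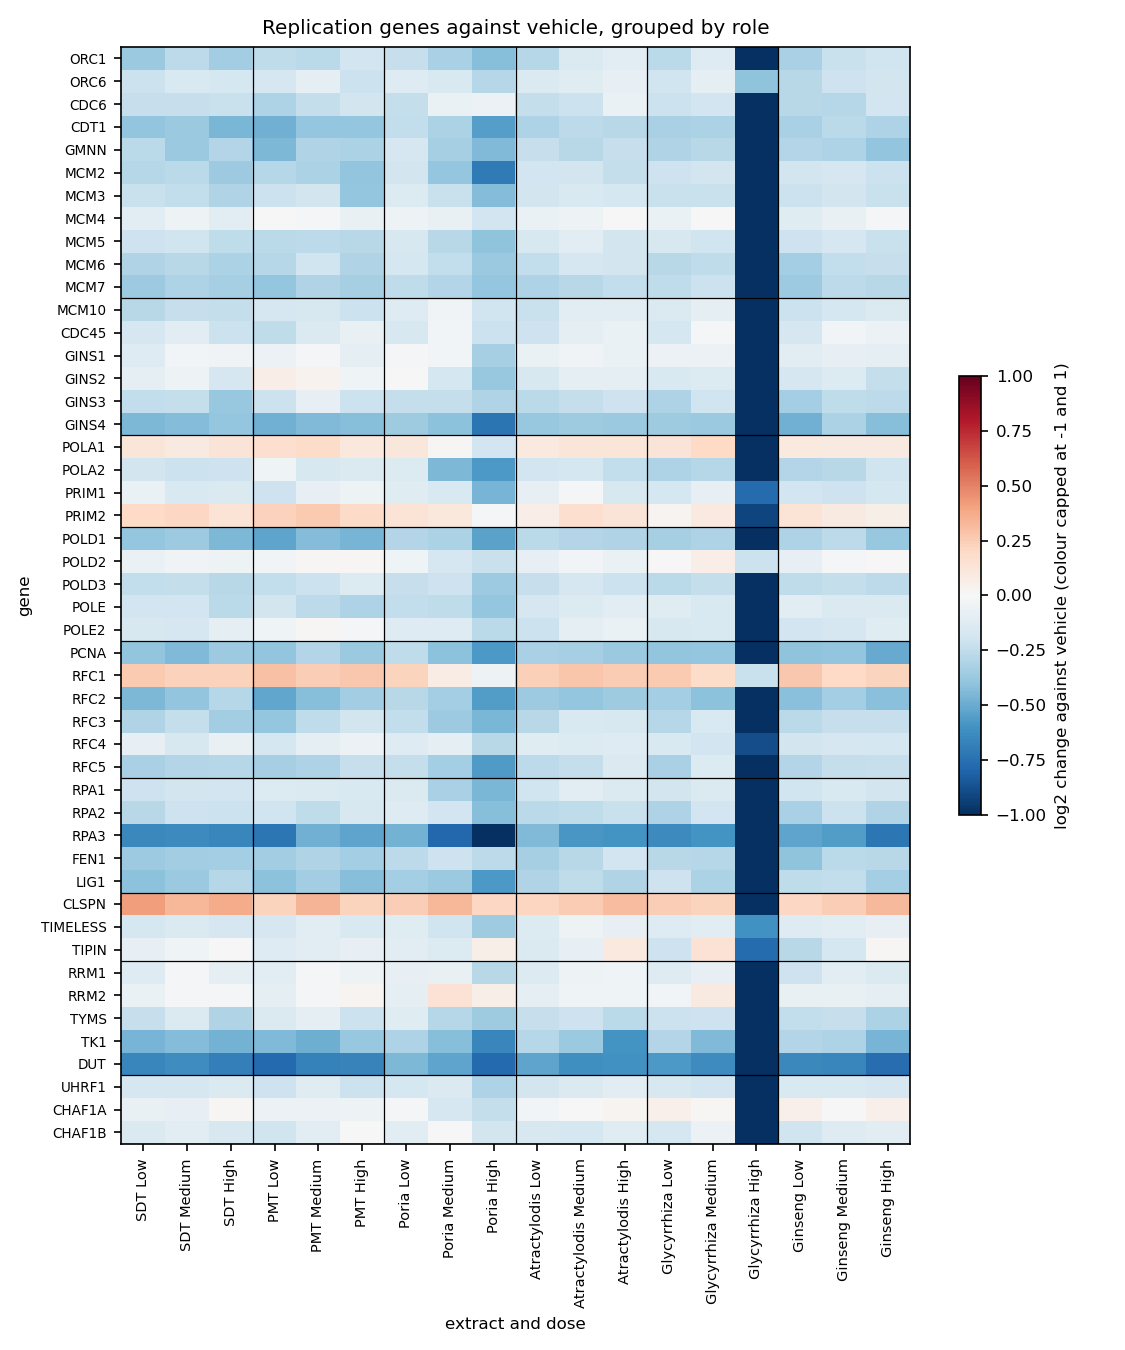
Log2 change of the 48 members (rows, grouped by role) against vehicle in the 18 groups of the replicated extracts (columns), with the colour scale capped at 1 in each direction. Glycyrrhiza High is the only column filled at the low end, RFC1 and CLSPN are the rows called higher in most columns (15 and 17 of 18), and DUT and RPA3 are dark across extracts.

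The dose question was then asked inside each extract, High against Low, which uses no vehicle library and 1 set code. In Glycyrrhiza every member fell, and in Poria most did. All 48 members were called lower in Glycyrrhiza High, against 27.7% of all genes lower and 28.6% higher, with a median log2 change of -1.14 and a range from -2.21 to -0.21. The median over all genes was 0.01. In all 48, every High library lay below every Low library, which held for 31% of all genes.

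**Figure D3:**
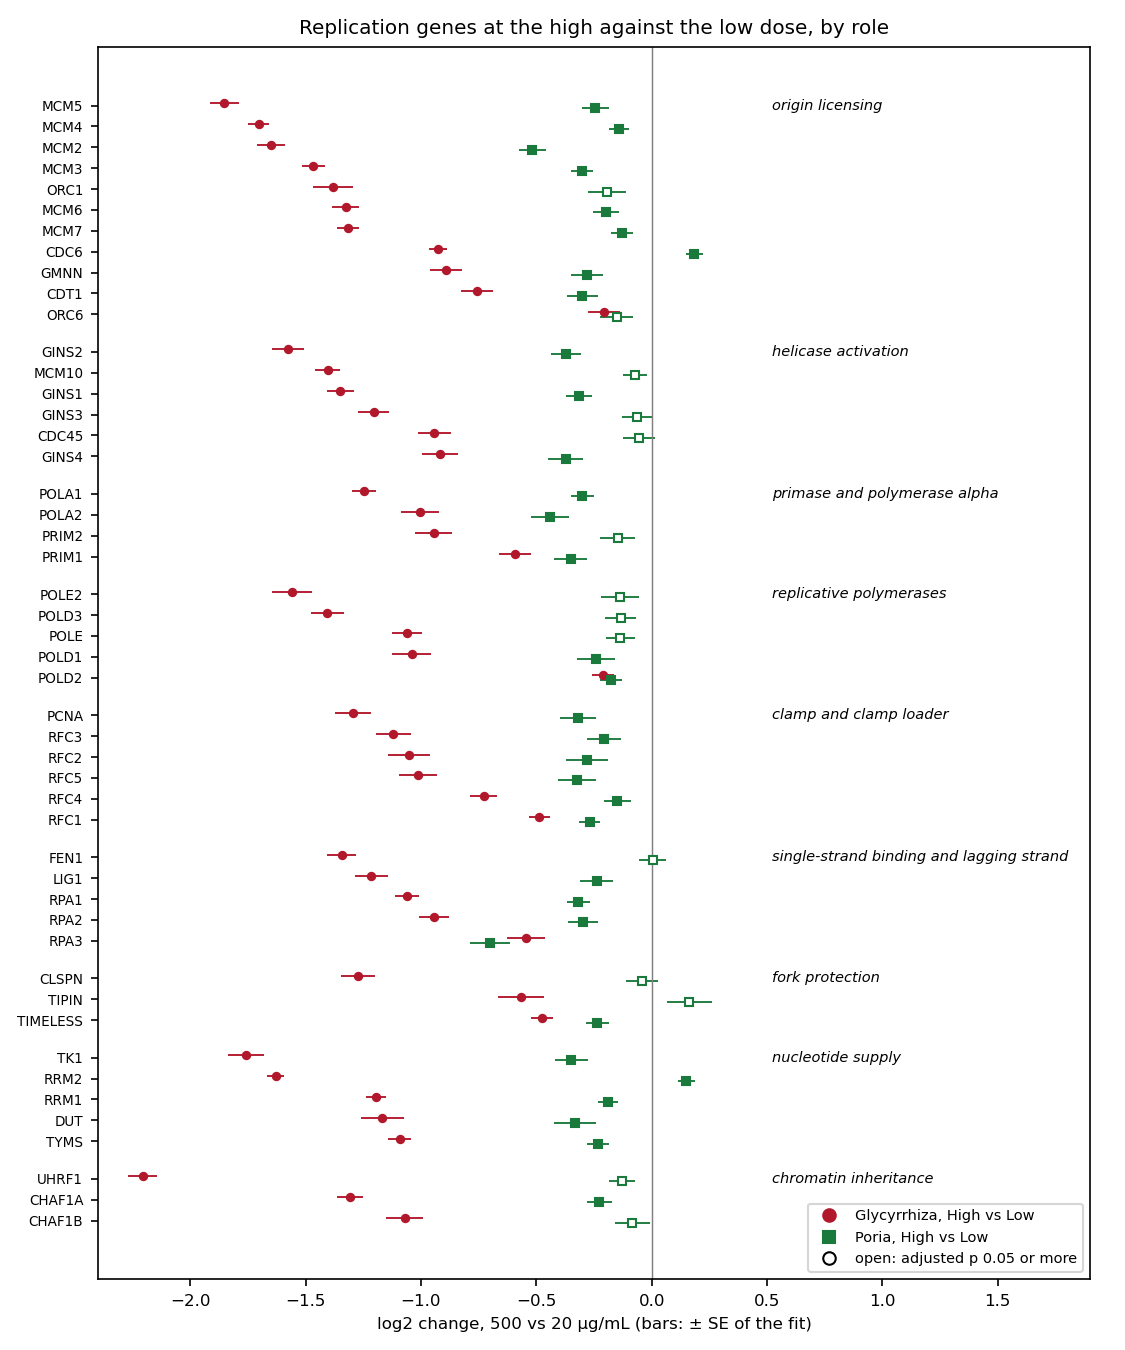
Log2 change of each member between High and Low (x axis, with SE bars), grouped by role down the page, for Glycyrrhiza (red circles) and Poria (green squares); open symbols have an adjusted p of 0.05 or more. The red points lie from -2.21 to -0.21, and RPA3 is the row where the green point lies to the left of the red one.

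Among the licensing genes 11 of 11 fell in Glycyrrhiza High, with a median of -1.33. MCM5 (ENSG00000100297, chr22:35400063-35425430, plus strand), a subunit of the helicase, led them with 29, 25.2 and 28.3 CPM in Glycyrrhiza High, against 98.9, 97.3 and 101 CPM in Low. Its log2 change was -1.85 ± 0.06 (SE, adjusted p = 5.17e-28), and Medium held 95.6, 98.2 and 95.8 CPM, beside Low. The other helicase subunits fell by 1.70 for MCM4, 1.65 for MCM2, 1.47 for MCM3, 1.33 for MCM6 and 1.32 for MCM7 on the log2 scale. These 6 subunits form 1 ring, and all of them fell. ORC1, the ATPase of the origin recognition complex, changed by -1.38 ± 0.09, and CDC6, which loads the helicase with it, by -0.92 ± 0.04. CDC6 held 50.8, 48 and 48.8 CPM in Glycyrrhiza High, against 96.8, 92.4 and 90.9 CPM in Low. CDT1, the second loader, changed by -0.76 ± 0.07 and its inhibitor geminin (GMNN) by -0.89 ± 0.07. ORC6, a small subunit of the origin complex, changed least of all members, with 32.6, 30.5 and 32.9 CPM in Glycyrrhiza High and 37.2, 37.4 and 36 CPM in Low. The ORC6 change was -0.21 ± 0.07 (adjusted p = 0.00993), and without Glycyrrhiza High replicate 2 it was -0.17 with adjusted p = 0.0603.

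The 6 helicase activators fell too, with a median of -1.28. GINS2 held 18.4, 16.9 and 17 CPM in Glycyrrhiza High, against 53.3, 48.9 and 53.8 CPM in Low, a change of -1.58 ± 0.07 (adjusted p = 3.42e-24). The other GINS subunits changed by -1.35 for GINS1, -1.21 for GINS3 and -0.92 for GINS4, so all 4 subunits of the complex fell. GINS4 held 9.29, 9.77 and 9.65 CPM in Glycyrrhiza High, against 18.2, 17 and 19 CPM in Low. MCM10, which helps the helicase fire, changed by -1.40 ± 0.05 and CDC45, the cofactor that travels with it, by -0.94 ± 0.07.

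Primase, polymerases, clamp and lagging-strand genes followed. POLA1 led the 4 primase and polymerase alpha genes (median -0.97) with 15.1, 15.7 and 16.2 CPM in Glycyrrhiza High, against 36.9, 37.8 and 36.8 CPM in Low, a change of -1.25 ± 0.05 (adjusted p = 8.62e-25). The accessory subunit POLA2 held 9.09, 8.14 and 7.55 CPM in Glycyrrhiza High, against 17.9, 14.7 and 17.3 CPM in Low, and changed by -1.004 ± 0.08. The primase subunits PRIM1, which is catalytic, and PRIM2, which has near-identical copies that can take its reads, changed by -0.59 and -0.95. Among the 5 replicative polymerase genes (median -1.06) POLE2, the accessory subunit of polymerase epsilon, held 5.07, 4.99 and 3.93 CPM in Glycyrrhiza High, against 14.9, 12.9 and 13.9 CPM in Low. POLE2 changed by -1.56 ± 0.09 and the catalytic subunit POLE by -1.06 ± 0.06. The subunits of polymerase delta were uneven: POLD3 changed by -1.41, the catalytic POLD1 by -1.04 and POLD2 by -0.21. POLD1 held 12.5, 13.1 and 12.4 CPM in Glycyrrhiza High, against 27.8, 25.3 and 25.3 CPM in Low.

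PCNA (ENSG00000132646, chr20:5114953-5126626, minus strand), the sliding clamp, held 103, 93.7 and 94.6 CPM in Glycyrrhiza High, against 243, 239 and 232 CPM in Low. Its change of -1.29 ± 0.08 (adjusted p = 6.78e-19) was the largest of the 6 clamp genes, whose median was -1.03. The small clamp loader subunits changed by -1.12 for RFC3, -1.05 for RFC2, -1.01 for RFC5 and -0.73 for RFC4, and the large subunit RFC1 by -0.49. RFC5 held 13.1, 11.6 and 11.7 CPM in Glycyrrhiza High, against 24.4, 25.8 and 23 CPM in Low. FEN1, the flap nuclease that trims lagging-strand primers, held 23.9, 22.3 and 24 CPM in Glycyrrhiza High, against 59.6, 61.9 and 56.4 CPM in Low. FEN1 changed by -1.34 ± 0.06 (adjusted p = 7.09e-23), LIG1, the ligase that seals the fragments, by -1.22 ± 0.07, and the single-strand binding subunits RPA1, RPA2 and RPA3 by -1.06, -0.94 and -0.55. RPA3 held 9.53, 9.83 and 8.60 CPM in Glycyrrhiza High, against 14.3, 13.4 and 13.3 CPM in Low. The median of these 5 genes was -1.06.

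Fork protection genes had the smallest median of the roles, -0.57 over 3 genes. CLSPN (ENSG00000092853, chr1:35720218-35769967, minus strand) held 13.1, 12.6 and 13.5 CPM in Glycyrrhiza High, against 30.5, 32.3 and 31.7 CPM in Low, a change of -1.27 ± 0.07 (adjusted p = 7.81e-20). TIMELESS, whose product forms a complex with that of TIPIN at the fork, held 36.8, 35.6 and 36.4 CPM in Glycyrrhiza High, against 51.5, 49.1 and 50.7 CPM in Low. It changed by -0.48 ± 0.05 and TIPIN by -0.57 ± 0.10.

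All 5 nucleotide supply genes fell, with a median of -1.19. TK1 (ENSG00000167900, chr17:78174075-78187233, minus strand), the S-phase thymidine kinase of the salvage route, held 16.3, 16 and 15.5 CPM in Glycyrrhiza High, against 55.9, 50.9 and 55 CPM in Low. The TK1 change was -1.76 ± 0.08 (adjusted p = 5.49e-24). RRM2 (ENSG00000171848, chr2:10120698-10131419, plus strand), the small subunit of ribonucleotide reductase, held 106, 99.1 and 98.6 CPM in Glycyrrhiza High, against 309, 320.1 and 310.3 CPM in Low. It changed by -1.63 ± 0.04 (adjusted p = 4.30e-34), with copies elsewhere in the genome that can take its reads, and the large subunit RRM1 changed by -1.19 ± 0.04. DUT changed by -1.17 ± 0.09. Thymidylate synthase (TYMS) changed by -1.09 ± 0.05, and it overlaps the antisense gene ENOSF1, whose reads cannot be told apart without a stated strand setting.

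The 3 chromatin genes had a median of -1.31 and included the largest fall of all members. UHRF1 (ENSG00000276043, chr19:4903080-4962154, plus strand) brings the maintenance methyltransferase DNMT1 to newly copied DNA. It held 19.3, 17.9 and 20.7 CPM in Glycyrrhiza High, against 87, 91.4 and 87.9 CPM in Low and 93.6, 102 and 101 CPM in vehicle. Its change was -2.21 ± 0.06 (adjusted p = 3.97e-31), and the High level was 19.5% of vehicle. CHAF1A and CHAF1B, which deposit histones behind the fork, changed by -1.31 ± 0.06 and -1.07 ± 0.08. CHAF1A held 21.5, 19.7 and 20.3 CPM in Glycyrrhiza High, against 50.7, 51.3 and 50.1 CPM in Low.

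**Figure D4:**
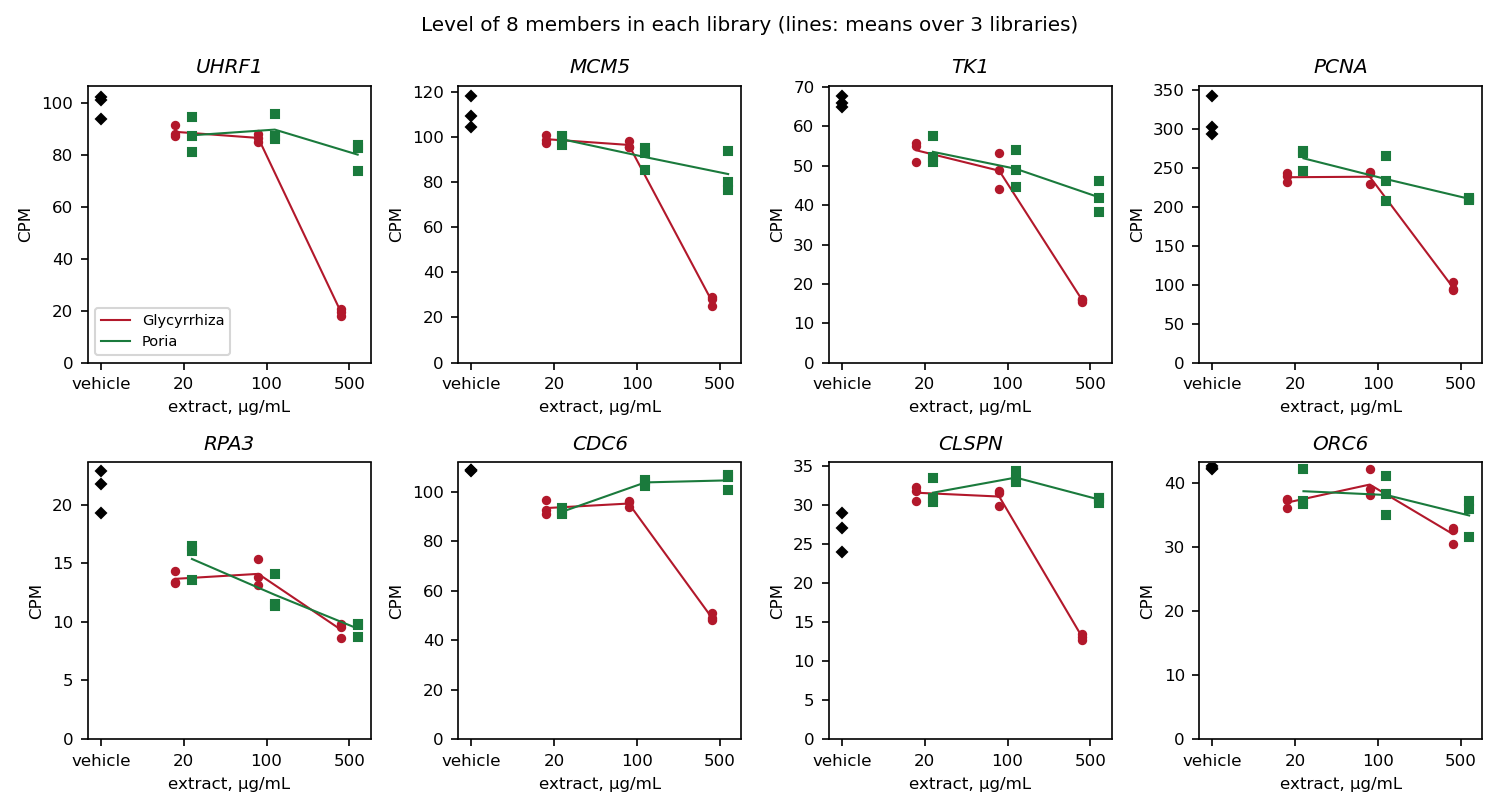
CPM per library (y axis, from 0) of UHRF1, MCM5, TK1, PCNA, RPA3, CDC6, CLSPN and ORC6 in vehicle and at 20, 100 and 500 µg/mL (x axis) of Glycyrrhiza and Poria, with lines through the means of 3 libraries. The Glycyrrhiza lines of UHRF1, MCM5 and TK1 are nearly level up to 100 µg/mL and drop at 500 µg/mL, whereas RPA3 steps down with Poria dose.

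In Poria High 32 members were called lower and 2 higher than in Low, against 18.4% and 20% of all genes, with a median log2 change of -0.23. In 33 members every High library lay below every Low library, which held for 19.9% of all genes. RPA3 had the largest fall, with 9.76, 8.70 and 9.81 CPM in Poria High, against 16.1, 13.6 and 16.4 CPM in Low, a change of -0.70 ± 0.09 (adjusted p = 7.89e-09). MCM2 followed with 87.3, 78.4 and 81.3 CPM in Poria High, against 112, 119 and 122 CPM in Low, a change of -0.52 ± 0.06 (adjusted p = 6.74e-10). The MCM2 change in Glycyrrhiza High, for comparison, was -1.65 ± 0.06, with 37.1, 35.7 and 38.3 CPM in High, against 118, 114 and 116 CPM in Low.

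By role, 8 of 11 licensing genes and 3 of 6 helicase activators were called lower in Poria High. So were 3 of 4 primase and polymerase alpha genes and 2 of 5 replicative polymerase genes. Called lower too were 6 of 6 clamp genes, 4 of 5 single-strand binding and lagging-strand genes and 1 of 3 fork protection genes. The same held for 4 of 5 nucleotide supply genes and 1 of 3 chromatin genes. Some uncalled members also stood lower: the highest log2 change was -0.05 in helicase activators, -0.13 in replicative polymerase genes and -0.08 in chromatin genes. Licensing, lagging-strand, fork protection and nucleotide supply genes reached 0.19, 0.004, 0.16 and 0.15. The clamp and its loader were the 1 role with every member called lower, and their median was -0.27. PCNA held 209.6, 212 and 209 CPM in Poria High, against 271, 246 and 269 CPM in Low, a change of -0.32 ± 0.08 (adjusted p = 7.51e-04), and RFC5 19.1, 22.3 and 20.8 CPM in High, against 27.5, 23.4 and 26.8 CPM in Low, a change of -0.32 ± 0.08. POLA2 held 16, 13.9 and 11.7 CPM in Poria High, against 19.1, 19.2 and 17.9 CPM in Low, a change of -0.44 ± 0.08 (adjusted p = 2.12e-05). GINS4 held 14.1, 12.6 and 15.1 CPM in Poria High, against 19.2, 17.2 and 17.9 CPM in Low, a change of -0.37 ± 0.08. TK1 held 46.1, 38.1 and 41.8 CPM in Poria High, against 52.1, 50.9 and 57.7 CPM in Low, a change of -0.35 ± 0.07 (adjusted p = 1.28e-04). TIMELESS and CHAF1A, the called members of the fork protection and chromatin roles, changed by -0.24 ± 0.05 and -0.23 ± 0.05. POLD1 changed by -0.24 ± 0.08 (adjusted p = 0.0168), a call lost in 4 of the fits that left out 1 library, which gave adjusted p = 0.0795 without Poria Low replicate 1, 0.103 without Poria High replicate 2, 0.073 without Poria High replicate 3 and 0.0622 without Poria Low replicate 3.

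CDC6 and RRM2 were called higher in Poria High than in Low while both were lower in Glycyrrhiza High. CDC6 held 107, 106 and 101 CPM in Poria High, against 93.5, 91.2 and 91.1 CPM in Low, a change of 0.19 ± 0.04 (adjusted p = 1.21e-04). RRM2 held 340.4, 337 and 316 CPM in Poria High, against 304, 299 and 291 CPM in Low, a change of 0.15 ± 0.04 (adjusted p = 9.56e-04). On total counts, where the median of all genes moved to -0.16, CDC6 stood at 0.02 (adjusted p = 0.687) and RRM2 at -0.01 (adjusted p = 0.874), so neither call held under that scaling. With only the 2 groups fitted, the adjusted p was 0.0568 for CDC6 and 0.152 for RRM2. Members that fell in Glycyrrhiza High but were not called in Poria High included UHRF1, with 82.7, 83.5 and 73.8 CPM in Poria High, against 94.4, 80.8 and 87.1 CPM in Low (-0.13 ± 0.06, 95% interval -0.24 to -0.01). FEN1 likewise held 60.2, 60.8 and 58.6 CPM in Poria High, against 59.7, 57.7 and 61.7 CPM in Low (95% interval -0.12 to 0.13). CLSPN changed by -0.04 ± 0.07 (95% interval -0.18 to 0.10) and POLE2 by -0.14 ± 0.08 (95% interval -0.30 to 0.03).

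The differences between extracts were tested directly, as the change from Low to High in 1 extract minus that in another. The change was more negative in Glycyrrhiza than in Poria in 45 of 48 members, against 23.7% of all genes called lower and 21.9% higher. The median of these differences over the 48 members was -0.96 log2 units. The 3 members not called were ORC6 (difference -0.05, 95% interval -0.26 to 0.15), POLD2 (-0.03, -0.17 to 0.10) and RPA3 (0.16, -0.09 to 0.40). UHRF1 differed by -2.08 ± 0.08 (adjusted p = 2.99e-24), RRM2 by -1.78 ± 0.05 and MCM5 by -1.61 ± 0.09. The calls of RFC1 (-0.22) and TIMELESS (-0.24) were lost on total counts, where the differences were -0.03 and -0.05. Glycyrrhiza and Ginseng, which share a set code, differed in all 48 members, against 22.6% of all genes lower and 22.8% higher. The median difference was -1.14, with a range from -2.19 to -0.29.

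Poria and Atractylodis, the other pair under 1 code, differed in 25 members, all with the more negative change in Poria. Of all genes, 8.63% were called lower and 10.4% higher, and the median over the members was -0.26. RPA3 differed most, by -0.55 ± 0.12 (adjusted p = 4.65e-04), and MCM2 by -0.48 ± 0.08 (adjusted p = 1.78e-05). CDC6 and RRM2, higher in Poria High, did not differ by call from Atractylodis (0.01, 95% interval -0.10 to 0.12, and 0.10, 95% interval -0.01 to 0.20). The count was 16 without Atractylodis High replicate 1, 12 with only the 4 groups fitted and 43 on total counts. For the 2 formulas, SDT minus PMT, edgeR called 0 members and 0 of all genes, DESeq2 called 0 members, and 2 members had an unadjusted p under 0.05. The 95% intervals of the 48 differences lay between -0.48 and 0.36 log2 units.

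In the other 4 replicated extracts few or no members were called between High and Low. In SDT edgeR called 0 members between High and Low, against 0.553% of all genes lower and 0.51% higher, DESeq2 called 0, and 1 member had an unadjusted p under 0.05. The 95% intervals of the SDT changes lay between -0.26 and 0.34. In PMT both tools called 0 members, against 0.313% and 0.203% of all genes by edgeR, with 6 at an unadjusted p under 0.05 and intervals between -0.30 and 0.41. In Ginseng both tools called 0, against 3.03% and 2.63%, with 6 at an unadjusted p under 0.05, intervals between -0.36 and 0.49, and 1 call with only the 2 groups fitted. TIPIN had the smallest of these p-values (0.29 ± 0.10, adjusted p = 0.0626) and was chosen after its values were seen.

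Atractylodis had 1 member lower and 1 higher, against 3.03% and 3.4% of all genes. TK1 held 47.3, 43.2 and 41 CPM in Atractylodis High, against 49.3, 53 and 60.9 CPM in Low, a change of -0.31 ± 0.07 (adjusted p = 0.00322). Without Atractylodis Low replicate 3 it was -0.22 with adjusted p = 0.0887. CDC6 held 105, 104 and 102 CPM in Atractylodis High, against 96.1, 89.9 and 90.4 CPM in Low, a change of 0.17 ± 0.04 (adjusted p = 0.00287). With no filter on low counts 1 of these 2 calls was left, and with only the 2 groups fitted edgeR called 0.

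Another 59 genes of the pathway served as a wider view: 24 further origin and fork factors, 15 genes of nucleotide metabolism, 5 of chromatin at the fork and 15 regulators of S phase. In Glycyrrhiza High 48 of them were lower and 4 higher than in Low, against 27.7% and 28.6% of all genes, with a median of -0.65. By role, 20 of 24 origin and fork factors, 12 of 15 nucleotide genes, 4 of 5 chromatin genes and 12 of 15 regulators were lower. The largest changes were in E2F8, a repressor of the E2F family, SKP2, which targets the cell cycle inhibitor CDKN1B for degradation, and TOP2A, the topoisomerase that untangles copied DNA. E2F8 held 6.88, 6.82 and 6.11 CPM in Glycyrrhiza High, against 25.5, 26.6 and 26.6 CPM in Low, a change of -1.98 ± 0.07 (adjusted p = 4.81e-27). SKP2 held 34.6, 31.7 and 32.4 CPM in Glycyrrhiza High, against 104, 101 and 102 CPM in Low, a change of -1.64 ± 0.05 (adjusted p = 9.44e-31). TOP2A held 175, 169 and 166 CPM in Glycyrrhiza High, against 533, 522 and 519 CPM in Low, a change of -1.62 ± 0.05 (adjusted p = 3.19e-31). The 4 higher genes, named after their values were seen, were POLD4, a small subunit of polymerase delta (1.15 ± 0.13), CDKN1A, the p21 inhibitor of cyclin-dependent kinases and a p53 target (0.71 ± 0.10), the histone chaperone ASF1A (0.45 ± 0.07) and the purine synthesis enzyme GART (0.19 ± 0.04). POLD4 thus ran against the other 3 subunits of polymerase delta, all lower.

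In Poria High 28 of the 59 were lower and 10 higher than in Low, against 18.4% and 20% of all genes, with a median of -0.12. The 10 higher are thus no larger a share than among all genes. ASF1B, the histone chaperone of dividing cells, held 15.6, 12.7 and 12.7 CPM in Poria High, against 29.7, 22.7 and 25.5 CPM in Low, a change of -0.93 ± 0.10 (adjusted p = 3.79e-10). SKP2 held 71, 64.9 and 67.6 CPM in Poria High, against 119.7, 117 and 114 CPM in Low, a change of -0.78 ± 0.05 (adjusted p = 1.29e-18). E2F2, an activator of the family, held 10.3, 9.27 and 8.23 CPM in Poria High, against 15.5, 13.9 and 13.2 CPM in Low, a change of -0.62 ± 0.09 (adjusted p = 2.07e-07). The share of origin and fork factors lower was 12 of 24, with 5 higher, and that of S-phase regulators 9 of 15, with 2 higher. Atractylodis had 1 of the 59 lower, E2F2 (-0.29 ± 0.08, adjusted p = 0.0213), and 6 higher, against 3.03% and 3.4% of all genes. That E2F2 call was lost without Atractylodis Low replicate 1 (adjusted p = 0.0741), Atractylodis High replicate 2 (0.193) or Atractylodis Low replicate 3 (0.0552). Ginseng had 4 higher, TOP1, NME1, GART and ASF1A, named after their values were seen, against 2.63% of all genes. SDT had 1 lower, SKP2 (-0.25 ± 0.04, adjusted p = 4.40e-04), against 0.553% of all genes. With only the 2 SDT groups and the replicate block in the fit, an alternative added after seeing the data, that SKP2 call was lost (-0.25, adjusted p = 0.114).

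Angelica and Paeonia have 1 library per dose, so their values are log2 ratios of CPM to the vehicle mean with no replicate check and no test. A prior count of 2 was added, which shrinks the ratios of low genes. The member medians of Angelica were -0.20 at Low, -0.17 at Medium and -0.15 at High, and 1, 1 and 2 members lay under -0.5, against 5.23%, 6.85% and 9.53% of all genes. High against Low in Angelica gave a median of 0.06, with 0 members under -0.5, against 7.57% of all genes. The medians of Paeonia were -0.29 at Low, -0.28 at Medium and -0.59 at High, and 6, 1 and 31 members lay under -0.5, against 9.14%, 5.96% and 13.6% of all genes. Paeonia High thus had the lowest median after Glycyrrhiza High, in a single library. Set against Paeonia Low the High library had a median of -0.30, with 8 members under -0.5, against 11.8% of all genes. The mitochondrial share was 20.1% in Paeonia High and 22.7% in Paeonia Low, and its part was not tested.

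Within Paeonia High the lowest ratios to vehicle were -0.90 for DUT, -0.89 for TIPIN and -0.88 for MCM5. MCM5 held 60.2 CPM in Paeonia High, against 89.7 CPM in Paeonia Low and 109, 118 and 105 CPM in vehicle. UHRF1 held 57.4 CPM in Paeonia High, against 90.03 CPM in Paeonia Low and 93.6, 102 and 101 CPM in vehicle. Both stood below all 3 vehicle libraries. RRM2 (-0.05) and RFC1 (0.14) lay at the upper end of the members there, and DUT was already at -0.86 in Paeonia Low. These Paeonia and Angelica genes were picked after their values were seen.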

How the data were processed

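HepG2 messenger RNA was measured in 60 libraries. Libraries were made with the MGIEasy directional mRNA kit from 1 µg RNA of an integrity number over 7, per the labels' protocols, and read on an MGIseq instrument as paired 100 bp reads. Per the submitters' processing notes, FastQC 0.11.9, Trim Galore 0.6.5, STAR 2.7.3a, RSEM 1.3.3 and GRCh38 (hg38) were used; the annotation release and strand setting are not given in the sources used here. The values the authors deposited are RSEM expected counts per gene, not normalised, of which 23.4% of the nonzero values were not whole within a tolerance of 0.005. Of the 270 sample columns, 60 were used and 210 were not. Wortmannin (10 µM), a control in the series text, was not analysed here.

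Expected counts were rounded and filtered with filterByExpr on the groups (16286 of 60675 genes) and scaled by TMM. The test was the quasi-likelihood test of edgeR 4.0.16 (R 4.3.3), with Benjamini-Hochberg adjustment at 0.05. All 19 replicated groups (54 libraries) went into one model with a coefficient per group, which gave 28 comparisons. A common dispersion of 0.00316 corresponds to a variation of 5.6% between libraries of a group. The SE of a log2 change is its size over the square root of its F statistic. CPM are on TMM-scaled library sizes over all 60 libraries, and log2 CPM ratios of Angelica and Paeonia have a prior count of 2. Identifiers were matched to GENCODE release 29 on GRCh38 for gene coordinates, and promoter sequences come from RefSeq (GRCh38.p14); a gene counted as matched if any of its windows on a primary chromosome held the letters.

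The members, their role groups, the 59 related genes and the motifs were chosen with earlier results of these data known. Library values, for the libraries of some comparisons, are given for genes chosen by rule. These are the member with the largest change of each role in Glycyrrhiza and in Poria High against Low. Added to these are the 3 members with the largest mean change among those called lower at Low against vehicle in every extract. The members called higher there, members called in opposite directions between High and Low, and the member with the smallest change in Glycyrrhiza follow. The last are the 3 related genes with the largest change in each of the 2 extracts. For POLD1, TIMELESS and CHAF1A, picked by their change in Poria, library values are given for Glycyrrhiza only. Other genes named for their position are said to be so. Alternatives were size factors by relative log expression (RLE), total counts without TMM, no filter on low counts, DESeq2 1.42.0, only the groups compared, a replicate block, and leaving out each library.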

Additional observations from a re-analysis of the deposited data

Results flagged for a closer look

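The change from Low to High differed between Glycyrrhiza and Ginseng in 48 of 48 members, between Glycyrrhiza and Poria in 45, and between Poria and Atractylodis in 25, each by the contrast of 4 group coefficients in edgeR's quasi-likelihood test with Benjamini-Hochberg adjustment. In all of these members the change was more negative in the extract named first. Of all genes, in the same order, 22.6%, 23.7% and 8.63% were called lower and 22.8%, 21.9% and 10.4% higher. The last count was 16 without Atractylodis High replicate 1, 12 with only the 4 groups fitted and 43 on total counts.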

How the results depend on the processing

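The counts of 48 calls in Glycyrrhiza High against Low and against vehicle stayed within 1.5 times in every alternative. That bound allows for lost calls: in High against Low, ORC6 was not called without Glycyrrhiza High replicate 2 (edgeR adjusted p = 0.0603). Leaving out 1 library at a time, the number of members called ran from 15 to 27 in PMT High, 12 to 28 in PMT Medium, 21 to 32 in PMT Low and 14 to 24 in Poria Low against vehicle, from 1 to 2 in Atractylodis High against Low, and from 16 to 29 in Poria minus Atractylodis. With only the groups compared in the fit, edgeR called 10 members in Poria Low against vehicle, 0 in Atractylodis High against Low, 1 in Ginseng High against Low and 12 in Poria minus Atractylodis. On total counts it called 41 in Atractylodis High and 40 in Atractylodis Medium against vehicle and 43 in Poria minus Atractylodis. With no filter on low counts it called 1 in Atractylodis High against Low. Shares of all genes called were not computed for the alternative fits, here and below, so their counts stand without that background. The cause of these moves was not tested.

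Total counts moved the median of all genes to -0.24 in Poria High against vehicle, -0.16 in Poria High against Low and 0.20 in Glycyrrhiza minus Poria. Under that scaling 4 values changed sign: POLA1 in SDT High against vehicle (-0.0118), CLSPN in Poria High against vehicle (-0.0179), RRM2 in Poria Medium against vehicle (-4e-04) and RRM2 in Poria High against Low (-0.0104). PMT Medium against vehicle then had 36 members lower and 1 higher, in place of 25 and 4. The single-library medians against vehicle moved on total counts to -0.26, -0.24 and -0.20 in Angelica Low, Medium and High, and to -0.48, -0.32 and -0.76 in Paeonia Low, Medium and High. Of the calls of named genes, DESeq2 kept 465 and lost 7, RLE kept 466 and lost 6, the fits without 1 library kept 2869 and lost 306, the unfiltered fit kept 433 and lost 39, the fit of only the groups compared kept 435 and lost 37, and total counts kept 446, lost 22 and turned 4.

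Groups share replicate numbers, and deviations within groups of 2 or 3 libraries cannot settle whether these numbers pair the libraries. In no comparison was the correlation of deviations above 0.1 in every pair. In Atractylodis High against Low, the highest, it was positive in every pair and ran from 0.076 to 0.137. With the replicate block in the fit, 48 members were called in Glycyrrhiza High against Low, 35 in Poria High against Low and 27 in Poria minus Atractylodis; the block moved no count by over 1.5 times and lost 1 call of a named gene. With the replicate block and only the 2 groups compared, an alternative added after seeing the data, 25 members were called in Poria High against Low.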
